A study of Mus musculus with 7 samples.

Results

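The collagen chains are the genes whose symbol has the form Col, a number, a and a second number, and 43 of the 23284 gene symbols in the data fit this rule. Papillomas, benign skin tumors raised with the carcinogen DMBA and the promoter TPA, were profiled by RNA-seq in 4 CTR and 3 TG mice, 1 library for each mouse. CTR mice carried the inducible *Col1a1::tetO-Nanog* allele without a transactivator. TG mice, their littermates, carried the same allele together with *K5-rtTA*, in which the bovine keratin 5 promoter directs the transactivator to basal keratinocytes. All mice were adult C57BL/6 and drank doxycycline (2 mg/ml) throughout the protocol. Papillomas were taken when the protocol ended or when a mouse reached the humane endpoint. According to the paper, many TG mice reached that endpoint early because of large carcinomas, while all CTR tumors were papillomas. Which of the profiled mice did so is not stated, so time of collection and carcinoma burden may differ between the groups. The *tetO-Nanog* cassette lies downstream of *Col1a1*, which is itself one of the chains, in the CTR and TG mice alike. Values are FPKM, which divide the fragments of a gene by its transcript length and by the depth of the library, so that levels of different chains can be set side by side.

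Collagens are built from chains that wind around each other in a triple helix, and this winding needs the small amino acid glycine at every repeat of a Gly-X-Y pattern. Fibrillar collagens (types I, III and V in skin) form the rope-like fibrils of the dermis and are made mostly by fibroblasts. Type IV collagen forms the sheet of the basement membrane under the epidermis, type VII forms the anchoring fibrils that tie this sheet to the dermis, and type XVII spans the membrane of basal keratinocytes at the hemidesmosome. Type VI forms beaded filaments, FACIT collagens such as XII and XIV sit on the surface of fibrils, and the multiplexins XV and XVIII lie in basement membrane zones.

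The coding sequences of the main chains differ in their glycine repeats. In the GENCODE transcripts of GRCm38, the longest stretch of codons that begin with GG at each repeat, and so encode glycine there, had 338 triplets in *Col1a1*, 339 in *Col1a2* and 344 in *Col3a1*. It had 40 triplets in *Col4a1*, 66 in *Col4a2*, 75 in *Col7a1* and 56 in *Col17a1*, since the helices of these chains are interrupted. Exons of exactly 54 bases, a known building block of fibrillar genes, numbered 21 in *Col1a1*, 24 in *Col1a2* and 24 in *Col3a1*, against 2 in *Col4a1* and 3 in *Col17a1*. Such exons are not confined to fibrillar genes, and the FACIT gene *Col22a1* has 28. The stretches below show the contrast between unbroken and broken repeats, with glycine codons of the frame in capitals. Those of *Col1a1* (chr11:94939904-94939957, plus strand, coding exon 8), *Col1a2* (chr6:4515481-4515534, plus strand, coding exon 8) and *Col3a1* (chr1:45325360-45325413, plus strand, coding exon 6) are the first exons of 54 bases inside the long repeat. Those of *Col4a1* (minus strand, chr8:11244516-11244569 and chr8:11245058-11245075) and *Col17a1* (minus strand, chr19:47657140-47657165, chr19:47657463-47657498 and chr19:47659225-47659234) are joined across exons and surround the end of the first repeat of at least 10 triplets.
Col1a1: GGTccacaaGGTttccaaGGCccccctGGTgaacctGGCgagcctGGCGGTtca
Col1a2: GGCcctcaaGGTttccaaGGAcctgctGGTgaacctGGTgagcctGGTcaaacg
Col3a1: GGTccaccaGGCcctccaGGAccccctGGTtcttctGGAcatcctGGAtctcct
Col4a1: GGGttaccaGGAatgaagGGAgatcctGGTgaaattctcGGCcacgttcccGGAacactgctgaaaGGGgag
Col17a1: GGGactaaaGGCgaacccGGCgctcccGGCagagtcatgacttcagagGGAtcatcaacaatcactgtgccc
In the first 3 stretches a glycine codon opens each triplet from end to end, with 1 further glycine codon in *Col1a1*. In *Col4a1* and *Col17a1* the spacing is lost within the stretch.

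Some facts of the whole data set bear on every chain. *Nanog* had 2.70, 2.84, 12.7 and 3.34 FPKM in CTR 1 to CTR 4 and 36.9, 57.4 and 66.9 FPKM in TG 1 to TG 3, so CTR 3 stood above the other CTR papillomas. The files do not give depth, and the confidence intervals in them imply between 10074859 and 15710562 reads, with CTR 3 and TG 1 the deeper libraries. *Krt14*, the defining keratin of basal keratinocytes, was between 4717 and 10937 FPKM in all 7 papillomas. The library of TG 3 stood apart. Its median FPKM over all symbols was 1.14, against 0.539 to 0.673 in the other papillomas. The summed level of 6 skeletal muscle markers was 476 FPKM in TG 3, between 0.378 and 0.823 in CTR, 0.698 in TG 1 and 2.78 in TG 2. The summed level of 7 fibroblast markers was 156 FPKM in TG 3, between 21.2 and 25.9 in CTR, 29.5 in TG 1 and 26.5 in TG 2. Results are therefore given with and without TG 3. In a bulk tumor, more cells of a type and more RNA in each cell cannot be told apart.

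In CTR papillomas the chain of the highest mean was *Col17a1* (chr19:47646341-47692042), with 80.8 ± 19.4 FPKM (SD, n = 4). It was followed by *Col1a2* at 35.1 ± 8.79, *Col1a1* at 32.6 ± 12.2, *Col18a1* at 25.7 ± 12.1 and *Col3a1* at 19.1 ± 3.64 FPKM, and neighbours among these 4 differed by less than the larger of their SDs. In TG 3 the order was different, with *Col1a2* at 209 and *Col1a1* at 206 FPKM above *Col17a1* at 154 and *Col3a1* at 153. Over all 7 papillomas, 9 of the 43 chains had a mean of at least 10 FPKM, 10 lay between 2 and 10, 5 between 0.5 and 2, and 19 lay below 0.5 FPKM. The 24 chains with a mean of at least 0.5 FPKM were tested, among 12299 genes. The intervals of the files imply between 1032 and 10301 reads on *Col1a1*, between 4749 and 13751 on *Col17a1*, and between 12 and 469 on *Col14a1*, so the first 2 are far more precisely measured within a library than the last.

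**Figure D1:**
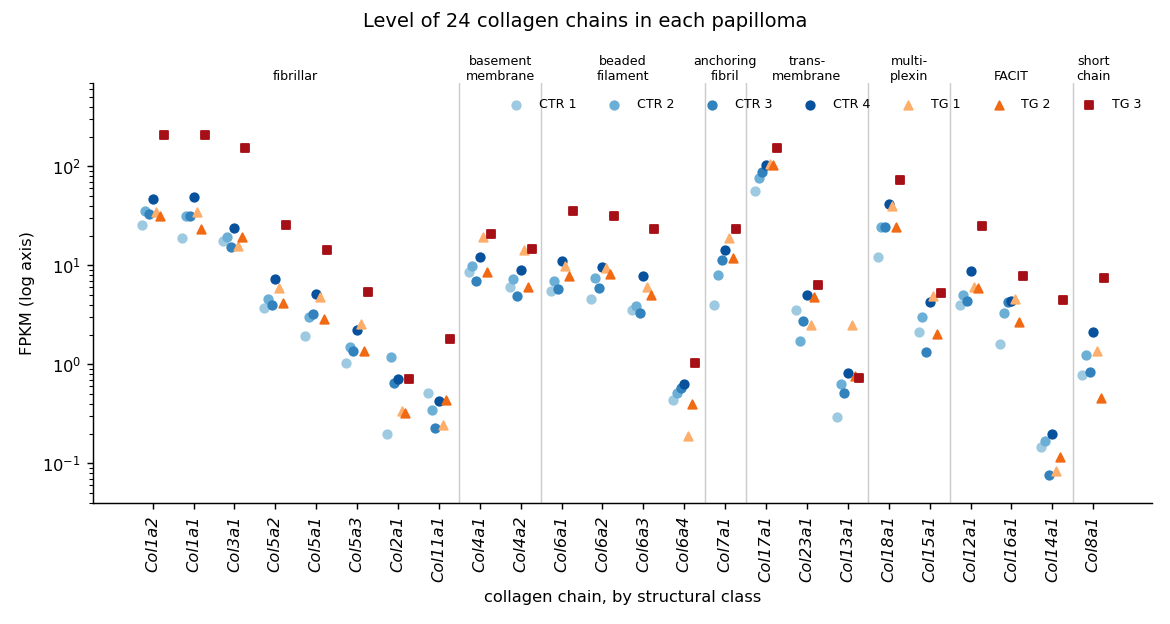
FPKM of the 24 tested chains on a log axis, with a point for each papilloma (circles CTR, triangles TG 1 and TG 2, squares TG 3) and chains grouped by class. TG 3 was the highest papilloma for 22 of the 24 chains, the exceptions being *Col2a1* and *Col13a1*, and for 41.1% of all tested genes.

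The first question was whether papillomas with induced *Nanog* differed from CTR papillomas in their collagen chains. No chain passed the adjusted threshold of 0.05 in limma, and neither did any other gene: 0 of 12299 were called (0%). The induced gene *Nanog* was among those tested and not called. At an unadjusted p under 0.05, 2 of the 24 chains were higher in TG, *Col7a1* and *Col17a1*, against 598 of 12299 genes (4.86%), and 0 chains were lower, against 241 genes (1.96%). A count of 2 among 24 is close to this background, and it depended on single papillomas. It was 0 without CTR 1 or CTR 2, 1 without CTR 3 (*Col7a1*), 1 without TG 3 (*Col13a1*), 8 without CTR 4 and 12 without TG 2. At that level 404 of all 12299 genes were higher and 195 lower without CTR 1, and 1179 differed in either direction without TG 3. The shares of all genes in the other fits are not given here, so those counts are not read as results about the chains. All TG papillomas lay above all CTR papillomas for 0 of the 24 chains, against 4.93% of the tested genes, and below them for 0 chains, against 2.23%. For 22 of the 24 chains, and for 60% of all tested genes, TG had the higher mean of log2 values. The median log2 difference of the chains was 0.75, against 0.06 over all tested genes, and without TG 3 these medians were 0.19 and -0.03.

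Both epithelial chains had their lowest value in CTR 1 and their highest in TG 3. *Col7a1* (chr9:108953745-108984875), the chain of anchoring fibrils, had 3.96, 7.92, 11.3 and 14.4 FPKM in CTR 1 to CTR 4 and 18.7, 11.9 and 23.1 FPKM in TG 1 to TG 3. When every TG value was set against every CTR value, TG was the higher in 11 of 12 pairings, and the groups overlapped because TG 2 lay below CTR 4. The log2 difference was 0.98 ± 0.40 (SE), with an adjusted p of 0.713 from limma and an unadjusted p of 0.0378. The exact permutation test over all 35 splits of the papillomas gave p = 0.114, where 0.0286 is the smallest p it can give.

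*Col17a1*, the hemidesmosomal chain, had 56.5, 76.8, 87.0 and 103 FPKM in CTR and 106, 102 and 154 FPKM in TG papillomas. TG 2 lay just below CTR 4, and TG was again the higher in 11 of 12 pairings. The log2 difference was 0.59 ± 0.24 (SE), with an adjusted p of 0.719 from limma, an unadjusted p of 0.0395 and an exact permutation p of 0.0857. Without TG 3 the differences were 0.77 for *Col7a1* and 0.40 for *Col17a1*, and without CTR 1, the papilloma with the lowest values, they were 0.64 and 0.43. Without CTR 2 they were 0.95 and 0.57, and among the 5 papillomas of lower depth they were 1.05 and 0.71. In none of these 4 fits was either chain below an unadjusted p of 0.05. Both were below that level without CTR 4, without TG 2 and with the replicate number as a block. Without CTR 3 only *Col7a1* of this pair was below it, and without TG 1 only *Col17a1*. Neither chain passed the adjusted threshold in any of these fits.

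*Col7a1* and *Col17a1*, grouped here as epithelial, were also set against genes of basal keratinocytes within each papilloma. *Krt5*, a basal keratin, had a log2 difference of 0.08 and *Itgb4*, the integrin partner of type XVII collagen in the hemidesmosome, one of 0.03. The other basal markers had 0.09 (*Krt14*), 0.09 (*Trp63*), 0.25 (*Itga6*) and 0.43 (*Krt15*). *Itga6* was 44.8, 24.7, 47.9 and 69.8 FPKM in CTR and 42.1, 43.5 and 78.3 FPKM in TG papillomas. Ratios to *Itga6*, *Trp63* and *Krt15* were not taken, so the ratios below hold only for the genes they name. The ratio of *Col17a1* to *Itgb4* within a papilloma was 1.51, 1.65, 1.41 and 1.36 in CTR 1 to CTR 4 and 2.01, 2.37 and 2.17 in TG 1 to TG 3, so that all TG papillomas lay above all CTR papillomas. The exact permutation test of this ratio gave p = 0.0286, the smallest it can give, and 0.271 after adjustment over the 19 ratios compared. *Col7a1* over *Krt5* was between 0.00421 and 0.00835 in CTR and between 0.0104 and 0.0130 in TG papillomas (exact permutation p = 0.0571, adjusted 0.271). *Col17a1* over *Krt5* overlapped, with 0.0453 to 0.0600 in CTR and 0.0598 to 0.0896 in TG papillomas (exact permutation p = 0.0571, adjusted 0.271). *Col17a1* over *Krt14* overlapped as well, with 0.0103 to 0.0130 in CTR papillomas, the lowest value of all in TG 1 at 0.00972, 0.0136 in TG 2 and the highest in TG 3 at 0.0327 (exact permutation p = 0.314, adjusted 0.965). None of these ratios passed the adjusted threshold.

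The basement membrane chains were high in TG 1 and TG 3 but not in TG 2. *Col4a1* (chr8:11198423-11312826) had 8.66, 9.85, 6.92 and 12.2 FPKM in CTR and 19.5, 8.61 and 20.5 FPKM in TG papillomas. *Col4a2* (chr8:11312829-11449287), its partner in the ubiquitous type IV trimer, had 6.02, 7.33, 4.87 and 9.01 FPKM in CTR and 14.4, 6.05 and 14.6 FPKM in TG papillomas. In both, TG 2 lay within the CTR values. The log2 difference was 0.69 ± 0.31 (SE) for *Col4a1* and 0.67 ± 0.33 for *Col4a2* (adjusted p of 0.760 and 0.784 from limma, exact permutation p of 0.2 and 0.171). Without TG 2 they were 1.08 and 1.07, and without TG 3 they were 0.48 and 0.47. The sum of 5 endothelial markers, another source of type IV collagen, was between 6.70 and 12.4 FPKM in CTR and 17.4, 9.82 and 25.8 FPKM in TG papillomas, and its part in the result was not tested.

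The other type IV chains were scarce. *Col4a5* lay between 0.189 and 0.805 FPKM in CTR and between 0.230 and 0.634 in TG papillomas, and *Col4a6*, its partner in epithelial basement membranes, between 0.0516 and 0.180 in CTR and between 0.0948 and 0.255 in TG papillomas. The ratio of *Col4a6* to *Col4a5* was between 0.194 and 0.314 in CTR and between 0.390 and 0.413 in TG papillomas (exact permutation p = 0.0571, adjusted 0.271). At most 81 reads are implied on *Col4a5* and at most 28 on *Col4a6* in a papilloma, so these ratios carry a large counting error. *Col4a3* and *Col4a4*, the chains best known from kidney, stayed at or below 0.0644 FPKM.

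The fibrillar chains of types I, III and V differed between TG 3 and the other papillomas far more than between CTR mice and the remaining TG mice. *Col1a1* (chr11:94936270-94951856) had 18.9, 31.4, 31.2 and 48.6 FPKM in CTR 1 to CTR 4, and 34.3, 23.2 and 206 in TG 1 to TG 3. *Col1a2* (chr6:4505697-4541543) had 25.4, 35.3, 33.0 and 46.6 FPKM in CTR and 34.2, 31.4 and 209 FPKM in TG papillomas. *Col3a1* (chr1:45311538-45349706) had 17.6, 19.2, 15.4 and 24 FPKM in CTR and 15.7, 19.3 and 153 FPKM in TG papillomas. TG 1 and TG 2 lay within the CTR values for all 3 chains, and TG 3 was 6.34 times the CTR mean for *Col1a1*, 5.97 times for *Col1a2* and 8.03 times for *Col3a1*.

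The log2 difference was 0.82 ± 0.67 (SE) for *Col1a1*, 0.82 ± 0.59 for *Col1a2* and 0.93 ± 0.68 for *Col3a1*, with adjusted p of 0.861, 0.846 and 0.848 from limma and exact permutation p of 0.486, 0.457 and 0.343. Without TG 3 the sign turned, to -0.13, -0.06 and -0.11. The median over the 8 tested fibrillar chains was 0.81 with all papillomas and -0.06 without TG 3.

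Type V collagen, which is built into type I fibrils and limits their width, was like types I and III in the lead of TG 3 but not in the full order. *Col5a1* had 1.92, 2.98, 3.23 and 5.17 FPKM in CTR and 4.82, 2.85 and 14.3 FPKM in TG papillomas. *Col5a2* had 3.73, 4.6, 4.01 and 7.21 FPKM in CTR and 5.89, 4.17 and 25.8 FPKM in TG papillomas. *Col5a3* had 1.03, 1.48, 1.35 and 2.24 FPKM in CTR and 2.54, 1.36 and 5.32 FPKM in TG papillomas. TG 3 again held the highest value of each, and TG 1 exceeded CTR 4 for *Col5a3* alone. The log2 differences of the 3 chains lay between 0.70 and 0.82, and between 0.06 and 0.27 without TG 3. The cartilage chain *Col2a1* had its highest value in CTR 2, at 1.18 FPKM, and *Col11a1* in TG 3, at 1.81 FPKM. The chondrocyte markers *Acan* and *Matn1* stayed at or below 0.0370 FPKM in all papillomas.

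**Figure D2:**
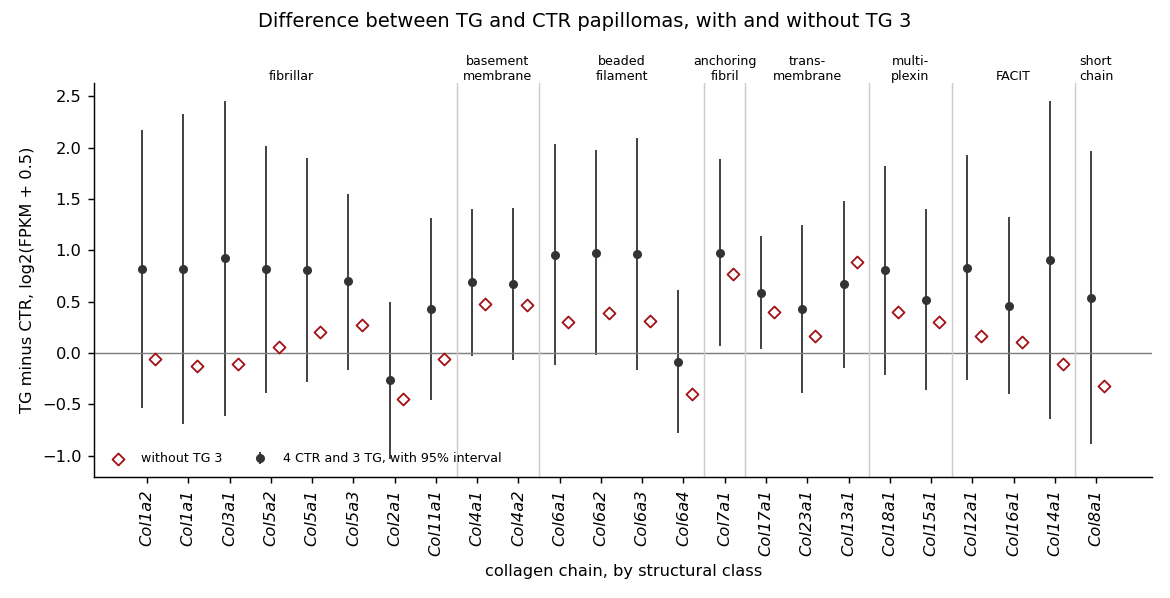
TG minus CTR difference of log2(FPKM + 0.5) for the 24 tested chains. Black points with bars are the limma estimates and 95% intervals from 4 CTR and 3 TG papillomas, and open diamonds are the estimates without TG 3, which lie at or below 0 for *Col1a1*, *Col1a2* and *Col3a1* but at 0.77 for *Col7a1*.

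The chains of type VI collagen, found around cells throughout connective tissue, were also led by TG 3. *Col6a1* had 5.47, 6.99, 5.79 and 11 FPKM in CTR and 9.86, 7.84 and 35.8 FPKM in TG papillomas. *Col6a2* had 4.57, 7.41, 5.91 and 9.72 FPKM in CTR and 9.48, 8.26 and 31.4 FPKM in TG papillomas. *Col6a3* had 3.50, 3.85, 3.33 and 7.79 FPKM in CTR and 6.11, 4.99 and 23.1 FPKM in TG papillomas. For all 3, TG 1 and TG 2 lay above CTR 1, CTR 2 and CTR 3 and below CTR 4. Their log2 differences lay between 0.96 and 0.98 (adjusted p between 0.748 and 0.804 from limma) and between 0.30 and 0.39 without TG 3. *Col6a4* had 0.436, 0.513, 0.582 and 0.631 FPKM in CTR and 0.187, 0.397 and 1.02 FPKM in TG papillomas, with TG 1 and TG 2 below every CTR papilloma.

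Among the fibril-associated chains, *Col12a1* was the most abundant, with 4.02, 4.99, 4.37 and 8.72 FPKM in CTR and 6.11, 5.92 and 25.2 FPKM in TG papillomas. *Col16a1* had 1.62, 3.28, 4.24 and 4.37 FPKM in CTR and 4.52, 2.67 and 7.77 FPKM in TG papillomas. The log2 difference was 0.83 for *Col12a1* and 0.46 for *Col16a1*, and 0.17 and 0.11 without TG 3. *Col14a1* (chr15:55307750-55520803), which regulates fibril growth in the dermis, stood out by its concentration in a single papilloma. It had 0.145, 0.169, 0.0764 and 0.197 FPKM in CTR, and 0.0832, 0.117 and 4.5 in TG 1 to TG 3, so that TG 3 held 95.7% of the summed TG level and was 30.6 times the CTR mean. Its log2 difference was 0.91 ± 0.68 (SE; adjusted p = 0.852 from limma, exact permutation p = 0.371) and -0.11 without TG 3.

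The multiplexin *Col18a1*, the precursor of endostatin, had 12.2, 24.2, 24.6 and 41.7 FPKM in CTR and 40.2, 24.2 and 73.0 FPKM in TG papillomas (log2 difference 0.81 ± 0.45 SE, adjusted p = 0.820 from limma, and 0.40 without TG 3). *Col15a1* had 2.12, 3.00, 1.34 and 4.30 FPKM in CTR and 4.92, 2.03 and 5.27 FPKM in TG papillomas. In *Col15a1*, as in type IV, TG 1 and TG 3 were the highest 2 papillomas and TG 2 lay within the CTR values. The transmembrane chain *Col23a1* had 3.58, 1.71, 2.71 and 4.96 FPKM in CTR and 2.51, 4.78 and 6.34 FPKM in TG papillomas. *Col13a1*, another transmembrane chain, had 0.294, 0.637, 0.519 and 0.823 FPKM in CTR and 2.50, 0.770 and 0.720 FPKM in TG papillomas, with the highest value in TG 1 (log2 difference 0.67 ± 0.36 SE, adjusted p = 0.813 from limma, and 0.89 without TG 3). *Col8a1*, a short-chain network collagen, had 0.776, 1.25, 0.836 and 2.14 FPKM in CTR and 1.37, 0.462 and 7.49 FPKM in TG papillomas. The log2 difference was 0.52 for *Col15a1*, 0.43 for *Col23a1* and 0.54 for *Col8a1*, and 0.30, 0.17 and -0.32 without TG 3.

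Of the 19 chains under the filter, *Col27a1* and *Col20a1* had all TG papillomas above all CTR papillomas, against 3.23% of the 10823 genes under the filter, and 0 chains had them below, against 0.462%. *Col27a1*, a fibrillar chain, had 0.185, 0.228, 0.297 and 0.266 FPKM in CTR and 0.298, 0.305 and 0.922 FPKM in TG papillomas. *Col20a1*, a FACIT chain, had 0.108, 0.132, 0.137 and 0.101 FPKM in CTR and 0.211, 0.220 and 0.272 FPKM in TG papillomas. For each the exact permutation p was 0.0286, the smallest possible, without correction for the number of chains. At most 25 reads are implied on *Col20a1* in a papilloma. *Col8a2* reached 1.05 FPKM in TG 3 and at most 0.0906 elsewhere. *Col9a1* was listed at 0 in every papilloma. *Col6a5*, *Col6a6*, *Col9a2*, *Col9a3*, *Col10a1*, *Col11a2*, *Col19a1*, *Col22a1*, *Col24a1*, *Col25a1* and *Col28a1* stayed at or below 0.450 FPKM.

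The excess of TG 3 over the CTR mean differed in size between classes. TG 3 was above the CTR mean for 24 of 24 tested chains, and for 8479 of the 12292 tested genes with a finite ratio. The median ratio was 3.89 over the chains, against a median of 1.18 over all tested genes. The ratio was at least 4 for 12 of the 24 chains, against 4.13% of genes. By class, it was between 1.04 and 8.03 for fibrillar chains and between 1.88 and 5 for the beaded filament chains, all of type VI. It was 2.18 for *Col4a1*, 2.15 for *Col4a2*, 2.46 for *Col7a1* and 1.91 for *Col17a1*. This is a single papilloma, so the ratios have no replicate check. The mean of TG 1 and TG 2 was 1.14 times the CTR mean at the median chain, with 0.927 for fibrillar and 1.21 for beaded filament chains, 1.5 for *Col4a1*, 1.63 for *Col7a1* and 1.29 for *Col17a1*.

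The make-up of collagen mRNA was also different in TG 3. Fibrillar chains made up between 35.1% and 37.8% of the summed collagen FPKM in CTR papillomas, and 28.4%, 30.2% and 58.6% in TG 1 to TG 3. *Col7a1* and *Col17a1* together made up between 31.5% and 38.5% in CTR, and 36.1%, 41.4% and 16.8% in TG 1 to TG 3. The fibrillar share was thus below every CTR papilloma in TG 1 and TG 2 and above them in TG 3. The summed FPKM of all chains was between 184 and 372 in CTR, and 346, 276 and 1055 in TG 1 to TG 3.

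**Figure D3:**
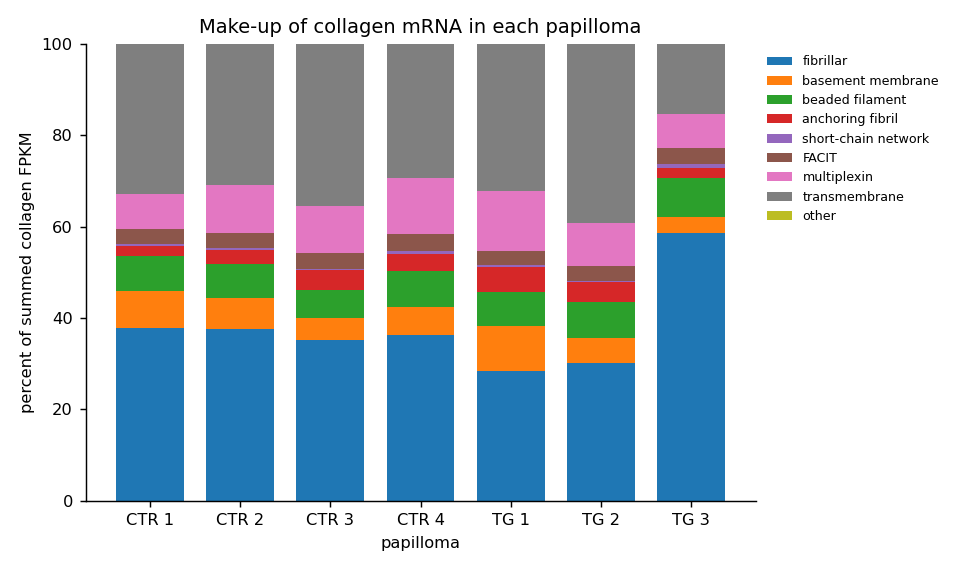
Stacked bars of the percent of summed collagen FPKM that each structural class makes up, with a bar for each papilloma. The fibrillar class (bottom) is 58.6% in TG 3 and at most 37.8% in the others, while the transmembrane class, mostly *Col17a1*, is 15.3% in TG 3 and at least 29.2% in the others.

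Many markers of other cell types were highest in TG 3 as well, as were 41.1% of all tested genes. Of the 7 fibroblast markers, 6 were highest in TG 3, among them *Dcn*, which had between 1.24 and 2.88 FPKM in CTR, and 0.757, 4.79 and 44.6 in TG 1 to TG 3. All 6 skeletal muscle markers were highest there. Of the adipocyte markers, *Adipoq* was 3.34 FPKM in TG 3 and listed at 0 in CTR, while *Fabp4* was between 1374 and 3228 FPKM throughout. The summed leukocyte markers were between 27.9 and 37.8 FPKM in CTR, and 25.0, 25.4 and 90.1 in TG 1 to TG 3. *Lyz2* was 54.1 FPKM of the TG 3 sum. *Ptprc* was 8.17 FPKM in TG 3, against 0.784 to 1.46 in CTR, and *Csf1r* 9.09, against 1.48 to 3.51. *Cd68* was 18.2 FPKM in TG 3, within its CTR values of 15.4 to 20.6, and *Cd3e* was 0.509, against 0.198 to 0.508. The summed pericyte and smooth muscle markers were between 8.37 and 15.7 FPKM in CTR and 21.9, 11.5 and 52.8 in TG papillomas. The 3 Schwann cell markers summed to 4.62 FPKM in TG 3 and at most 0.794 elsewhere. Basal keratinocyte markers summed to 12856, 8857 and 6741 FPKM in TG 1 to TG 3 and to between 6604 and 9807 in CTR. This sum was mostly *Krt14*, at 10937, 7561 and 4717 FPKM in TG 1 to TG 3, and it was highest in TG 1. The median log2 value of the 6 markers relative to the CTR mean had another order, at -0.04, 0.06 and 0.35, and 3 of the 6 were highest in TG 3. Suprabasal markers summed to 7445, 8029 and 3926 FPKM in TG 1 to TG 3 and to between 4682 and 9001 in CTR, but their members went different ways. *Krt10* was 3150, 3133 and 181 FPKM in TG 1 to TG 3, against 917 to 1440 in CTR. *Ivl* was 159, 108 and 36.4 FPKM, against 17.7 to 26.8 in CTR, and *Krt1* was 1517, 3309 and 133 FPKM, against 187 to 807. *Krt13* was 1290, 789 and 3210 FPKM, against 2406 to 6007 in CTR, with TG 1 and TG 2 below every CTR papilloma. *Lor* was 1329, 690 and 366 FPKM, against 618 to 1555 in CTR. The part of these cell types in the collagen values was not tested.

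CTR papillomas differed among themselves in an ordered way. CTR 4 had the highest CTR value of 22 of the 24 tested chains, against 25.7% of all tested genes, and CTR 1 the lowest CTR value of 16 chains, against 23.7% of genes. The ratio of CTR 4 to CTR 1 had a median of 2.08 over the chains and 0.99 over all tested genes. It was 3.64 for *Col7a1*, 2.57 for *Col1a1* and 1.40 for *Col4a1*. CTR 1 and CTR 4 were picked from these values as the ends of the CTR order. Their ratio is therefore a range among mice without the transactivator and is not comparable with a difference of group means.

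Some chains of one collagen type kept their proportions while their levels varied, and others did not. The ratio of *Col4a1* to *Col4a2* was 1.44, 1.34, 1.42 and 1.35 in CTR 1 to CTR 4 and 1.35, 1.42 and 1.40 in TG 1 to TG 3, a coefficient of variation of 2.88%. Of the 276 pairs of tested chains, this pair had the smallest SD of the log2 ratio over the 7 papillomas, 0.0416, against a median of 0.69. *Col6a1* with *Col6a3* ranked 3 at 0.119, *Col6a1* with *Col6a2* ranked 5 at 0.139, *Col1a1* with *Col1a2* ranked 12 at 0.203 and *Col5a1* with *Col5a2* ranked 20 at 0.254. *Col6a4* varied more against the other type VI chains, at 0.859 with *Col6a1*, 0.848 with *Col6a2* and 0.902 with *Col6a3*, above the median of all pairs. Pairs of different trimers also ranked high, such as *Col6a1* with *Col12a1*, ranked 2 at 0.115. Both values of a ratio come from the same library, and these ranks are a description without a test.

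The ratio of *Col1a1* to *Col1a2* was 0.746, 0.890, 0.946 and 1.04 in CTR and 1.00, 0.740 and 0.985 in TG papillomas. TG 3 lay inside the range of the other papillomas for this ratio, for *Col6a1* over *Col6a2* (0.943 to 1.20 over all papillomas) and for *Col5a1* over *Col5a2* (0.516 to 0.819). Within type V it lay outside for *Col5a3* over *Col5a1*, at 0.373 against 0.418 to 0.533 in the others. It also lay outside for *Col1a1* over *Col17a1*, at 1.34 against 0.227 to 0.474 in the others, and for *Col4a1* over *Col1a1*, at 0.0991 against 0.222 to 0.569. None of these ratios differed between the groups past the threshold (exact permutation p between 0.8 and 0.971).

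**Figure D4:**
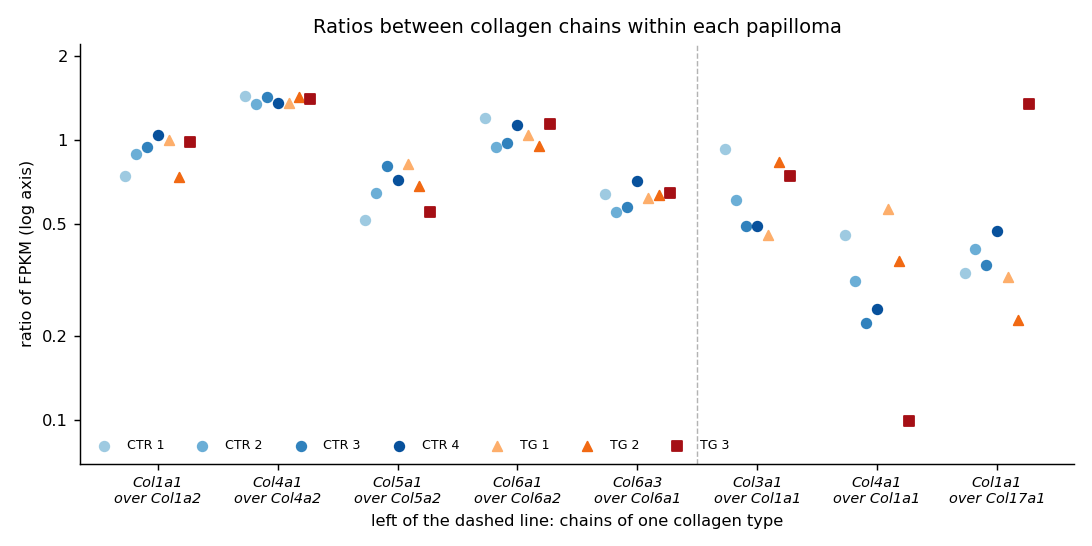
FPKM ratios between chains within each papilloma, on a log axis, with a point for each papilloma. In the 5 ratios within one collagen type shown left of the dashed line TG 3 lies among the others, as with *Col4a1* over *Col4a2* at 1.34 to 1.44, while *Col1a1* over *Col17a1* is 1.34 in TG 3 and at most 0.474 elsewhere.

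The genome places several of these pairs side by side. In the loci of the files, *Col4a1* on the minus strand ends on chromosome 8 at 11312826 and *Col4a2* on the plus strand starts at 11312829, head to head with 2 bases between them. *Col4a4* and *Col4a3* are head to head with 71 bases between them, and *Col4a6* and *Col4a5* with 1342 bases. *Col3a1* and *Col5a2* are tail to tail, 24624 bases apart. In the RefSeq promoter windows of GRCm38 (250 bases before to 50 after a start), 35 of the 43 symbols were matched, with 38 windows. The GC box (GGGCGG, on either strand) was present in 23 of these 38 windows and in 35.7% of all 32851 windows, and the CCAAT box (CCAAT, on either strand) in 13 of 38 and in 37.4%. A TATA box (TATAAA, on either strand) was found in 5 of the 38 windows and in 13.6% of all, and the windows of *Col3a1* and *Col17a1* were among them. These matches describe letters in a window and not bound sites.

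Collagen chains need enzymes and chaperones before they can be secreted, and they act through receptors and partners in the matrix. Of 52 such genes in the lists used, 40 passed the filter, and 0 passed the adjusted threshold in limma. At an unadjusted p under 0.05, 6 of the 40 were higher in TG, against 4.86% of all tested genes, and 0 were lower. By list these 6 were 2 of 23 processing genes, 3 of 7 receptors and 1 of 10 matrix partners. The number higher ran from 3, without CTR 1, CTR 2 or CTR 3, to 16 without TG 2. Without CTR 1, 404 of all tested genes were higher at that level. The shares of all genes without CTR 2, CTR 3 or TG 2 are not given here, so those counts are not read as results about the lists. Without TG 3 the number higher was 4, and 2 genes were then lower in TG, *Plod2* (-0.72), a lysyl hydroxylase, and *Itga1* (-0.75), an integrin chain that binds collagen. In that fit 1179 of all 12299 tested genes were below an unadjusted p of 0.05 in either direction. All TG papillomas lay above all CTR papillomas for 3 of the 40 (*Mrc2*, *P4ha3* and *Ddr1*), against 4.93% of genes. The median log2 difference was 0.45 for processing genes, 0.68 for receptors and 0.82 for matrix partners, and without TG 3 it was -0.04, 0.27 and 0.13.

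*Mrc2*, a receptor that takes up collagen for breakdown, had 0.953, 0.937, 0.782 and 1.21 FPKM in CTR and 2.22, 1.59 and 2.74 FPKM in TG papillomas, and the groups did not overlap. Its log2 difference was 0.85 ± 0.22 (SE; adjusted p = 0.564 from limma, exact permutation p = 0.0286), and 0.71 without TG 3. *P4ha3*, a subunit of the prolyl hydroxylase that stabilizes the triple helix, had 0.417, 0.472, 0.471 and 0.846 FPKM in CTR and 1.09, 1.10 and 1.24 FPKM in TG papillomas, also without overlap. *Itga2*, the integrin chain by which keratinocytes bind collagen, had 0.494, 0.369, 0.518 and 1.42 FPKM in CTR and 1.89, 1.40 and 2.94 FPKM in TG papillomas. *Ddr2*, a receptor kinase for fibrillar collagen, had 0.394, 1.24, 1.36 and 2.14 FPKM in CTR and 2.42, 7 and 1.85 FPKM in TG papillomas, and was highest in TG 2. The log2 differences were 0.66 for *P4ha3*, 1.13 for *Itga2* and 1.16 for *Ddr2*, with adjusted p of 0.687, 0.607 and 0.705 from limma. Without TG 3 these differences were 0.62, 0.90 and 1.49.

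*Bmp1*, the protease that trims the ends of procollagen, had 8.59, 10.1, 11.1 and 15.6 FPKM in CTR and 15.7, 14.7 and 26.6 FPKM in TG papillomas. *Nid1*, which links type IV collagen to laminin, had 1.44, 1.78, 1.15 and 2.77 FPKM in CTR and 2.84, 2.12 and 6.39 FPKM in TG papillomas. Their log2 differences were 0.70 and 0.83 (adjusted p of 0.702 and 0.732 from limma), and 0.44 and 0.42 without TG 3. *Fn1* (0.97), *Fkbp10* (0.53), *Postn* (0.91) and *Pcolce2* (0.61) were next by unadjusted p, with log2 differences as given. Their values without TG 3 were 0.41, 0.30, 0.35 and 0.31, and in all 4 the highest papilloma was TG 3. Of the 40 tested genes, 36 had their highest value in TG 3, against 41.1% of all tested genes.

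**Figure D5:**
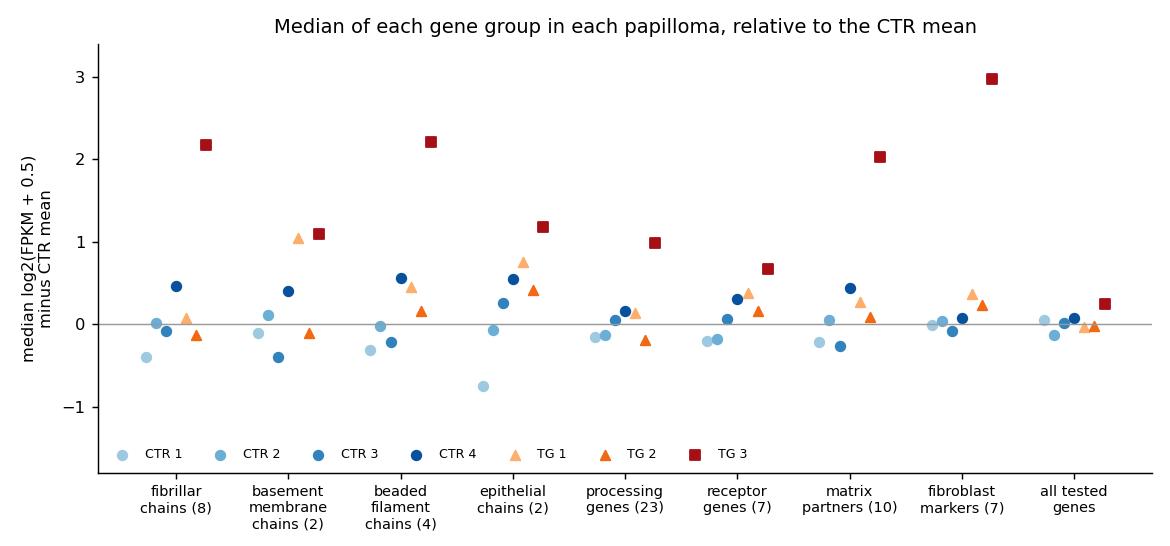
Median over the tested genes of each group of log2(FPKM + 0.5) minus the CTR mean of the gene, with a point for each papilloma and the number of genes in brackets. TG 3 stands at 2.17 for fibrillar chains and 2.98 for fibroblast markers, at 1.10 for basement membrane chains and 1.18 for the epithelial chains, and at 0.24 for all tested genes.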

How the data were processed

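PolyA+ RNA of 7 papillomas (4 CTR, 3 TG; RNA integrity numbers between 7.2 and 8.9) was sequenced from stranded libraries with single reads. The authors aligned the reads to GRCm38/mm10 with TopHat2 2.0.4, Bowtie 0.12.7 and SAMtools 0.1.16, and the deposited values are FPKM estimated by Cufflinks 1.3.0 for each papilloma, with intervals and a status. The labels name Trizol with an RNeasy Mini kit for the RNA, and the study's methods an RNeasy Fibrous kit. Depth is not in the files and was inferred from the intervals. The replicates are separate mice, and groups and numbers come from the labels.

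Entries of a symbol were summed (240 symbols), and 162 symbols with a failed estimate in any file were left out. Each chain had 1 entry. limma 3.58.1 with trend (R 4.3.3) was fitted to log2(FPKM + 0.5) of the 12299 genes that averaged 0.5 FPKM or more, with Benjamini-Hochberg adjustment and a threshold of 0.05. A fold change on this scale is understated for low genes. Single values were also compared by two-sided exact permutation over 35 splits. Ratios used FPKM without a pseudocount. On simulated data for this comparison over 12299 genes, limma called 82.8% of the 134 genes that had been given a log2 change of 2 or more, and 6 unchanged genes. The simulated noise was normal and drawn separately for each gene and papilloma, with no papilloma set apart as TG 3 was. These results therefore need not hold for the real data, where *Nanog* itself did not pass the adjusted threshold. The members, classes, gene lists, 10 lists of cell type markers and 20 alternatives were chosen with earlier results of these data known. Chains with values in every papilloma were the 2 most abundant of each class, those at an unadjusted p under 0.05 or without overlap, those of trimers I, III, IV, V, VI, VII and XVII, and *Col14a1*. *Col2a1*, *Col6a4*, *Col8a2*, *Col11a1* and *Col13a1* were added for their range after their values were seen, and *Col4a5* and *Col4a6* for their ratio. The 10 genes of smallest p in the lists of processing, receptor and associated genes were named. The older symbol *Emid2* for the chain XXVI was not matched by the rule. Python 3.11.15 with numpy 2.4.6, pandas 2.3.3, scipy 1.17.1 and matplotlib 3.10.9 was used.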

Additional observations from a re-analysis of the deposited data

Results flagged for a closer look

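Among the 64 tested chains and genes of the processing, receptor and associated lists, 6 had a CTR papilloma far from the other 3 CTR papillomas on the log2 scale. Chance alone sets a papilloma apart in about 1 of 20 such groups, and groups of 3, such as TG, were not examined. *Col6a3* was 7.79 FPKM in CTR 4, against 3.33 to 3.85 in the other CTR papillomas. *P4ha3* was 0.846 FPKM in CTR 4, against 0.417 to 0.472. *Adamts2*, a protease that trims procollagen, was 2.62 FPKM in CTR 4, against 1.23 to 1.35. *Pcolce*, an enhancer of that trimming, was 1.88 FPKM in CTR 1, against 3.4 to 3.77. *Glt25d1*, which glycosylates collagen, was 7.69 FPKM in CTR 2, against 10.6 to 10.9. *Ddr1*, a collagen receptor of epithelial cells, was 9.58 FPKM in CTR 2, against 11.9 to 12.3.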

How the results depend on the processing

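No chain and no gene of the processing, receptor and associated lists passed the adjusted threshold under any of the 20 alternatives, with a smallest adjusted p of 0.432 for a chain and 0.0771 for a listed gene, and 13 of the 24 chains kept their direction in all alternatives in which they were tested. Sample quality weights, in which TG 3 counted least, called 49 genes higher and 36 lower, lowered the median of the chains from 0.75 to 0.09, left 0 chains at an unadjusted p under 0.05, and turned the sign of *Col1a1* (-0.26), *Col1a2* (-0.02), *Col5a1* (-0.04), *Col5a2* (-0.04), *Col8a1* (-0.57), *Col15a1* (-0.08) and *Col16a1* (-0.16). Under these weights 1161 of all tested genes were higher and 1248 lower at an unadjusted p under 0.05. Without TG 3 the sign turned for *Col1a1* (-0.13), *Col1a2* (-0.06), *Col3a1* (-0.11), *Col8a1* (-0.32), *Col11a1* (-0.06) and *Col14a1* (-0.11). *Col6a4* turned to 0.17 without TG 1 and to 0.19 among the papillomas of lower depth. Over the fits without 1 papilloma, the values of these chains reached 1.44 for *Col1a1*, 1.29 for *Col1a2*, 1.51 for *Col3a1*, 1.21 for *Col8a1*, 0.76 for *Col11a1* and 1.44 for *Col14a1*, and *Col6a4* reached down to -0.4. The cause of these turns was not tested.

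Leaving out each papilloma in turn, the count of chains at an unadjusted p under 0.05 ran from 0 (without CTR 1 or CTR 2) to 12 (without TG 2), with 8 without CTR 4 and 1 without CTR 3 (*Col7a1*) or without TG 3 (*Col13a1*). At that level 1179 of all 12299 genes differed without TG 3, and 404 were higher and 195 lower without CTR 1. The shares of all genes without the other papillomas are not given here. The count of listed genes in either direction ran from 3 to 16, the median of the fibrillar chains from -0.06 to 1.29, and adjusted calls over all genes from 0 to 2 higher and from 0 to 1 lower. The chain count was 1 under upper-quartile scaling and under quantile normalization, which moved the median of all genes from 0.06 to -0.01 and -0.04. At an unadjusted p under 0.05, 495 and 392 of all tested genes were then higher, and 439 and 560 lower. Among the papillomas of lower depth the chain count was 0, with 2 listed genes and 1 gene called higher, and 452 of all tested genes were higher and 174 lower at that unadjusted level. A minimum mean of 2 FPKM left 2 listed genes, with 424 of all genes higher and 191 lower. With the replicate number as a block, 8 chains had an unadjusted p under 0.05 and 0 passed the adjusted threshold. At the unadjusted level 505 of all tested genes were higher with this block and 170 lower. The replicate numbers are not stated to mark a pairing, and correlations of -0.186, 0.0431 and -0.146 between same-numbered papillomas gave no sign of one.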
